A study of Vigna unguiculata subsp. sesquipedalis with 24 samples.

Results

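UP12_25623 is the asparagus bean unigene that the study's gene tables name as the ubiquitin-like protein ATG12A, and it is 1 of 29471 unigenes on the array. It was chosen from these same values, because it was high in well-watered plants of line B128 and appeared in line B47 only under drought. The levels of well-watered plants, the drought change in B47 and the difference between the lines in that change are therefore given as a description with no test. The tests below are on comparisons that the choice did not name, although they use some of the same arrays. In well-watered B128 and in drought-stressed B47, the comparisons of leaves with roots use only arrays that the choice rests on.

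Asparagus bean is the vegetable form of cowpea, and both lines are landraces. The labels call B128 isohydric-like, the term for plants that close stomata early, and B47 anisohydric-like, the term for plants that go on transpiring. The paper's account of water use runs the other way, with B47 as the line quicker to close its stomata, so the lines are called here by name only. The 8 groups were drought and well-watered leaves of B128, drought and well-watered leaves of B47, drought and well-watered roots of B128, and drought and well-watered roots of B47, with 3 arrays each, 24 in all. Irrigation was withheld from seedlings that were 16 days old, the well-watered plants kept being irrigated, and organs were taken on day 15 after that. The paper reports a significantly higher relative water content at sampling in drought-stressed B47 leaves than in drought-stressed B128 leaves, and similar contents with water. Comparisons of the lines under drought were therefore not made at equal leaf water content. The leaf material was the side leaflets of the first trifoliate leaf, and the plants that shared a pot were mixed before RNA was extracted. Each line is a single landrace. The labels call the 3 arrays of a group biological replicates, and p-values measure only the spread between such arrays. Of the labels of the 6 drought root arrays, one names roots and another names leaves. They were taken as roots, and their mean correlation was between 0.886 and 0.902 with well-watered root arrays of the same line, against 0.726 to 0.758 with well-watered leaf arrays. The values come from whole organs, in which fewer cells that express a gene and less RNA per cell cannot be told apart.

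Autophagy carries pieces of cytoplasm, damaged organelles and protein aggregates to the vacuole, where they are broken down and their building blocks are reused. ATG12 is a small protein folded like ubiquitin. The E1-like enzyme ATG7 and the E2-like enzyme ATG10 join it to ATG5, and this conjugate, together with ATG16, helps attach ATG8 to the lipid of the growing autophagic membrane. In Arabidopsis ATG12 is encoded by a pair of genes, ATG12A and ATG12B, and autophagy is known there for its part in starvation, leaf senescence and tolerance of drought and salt.

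ATG12A was near the bottom of the measured range in well-watered B47 and above the array median on every other array. In leaves, the normalized intensities were 7869, 8492 and 8106.5 in drought-stressed B128 and 7128, 7387 and 7474 in well-watered B128. They were 5824, 2567 and 7464 in drought-stressed leaves of B47, against 9.10, 7.10 and 10.1 in well-watered leaves of B47. The groups of B47 leaves thus lay far apart, whereas those of B128 leaves lay close together.

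Roots gave the same picture. The intensities were 9526, 8823 and 9971 in drought-stressed roots of B128 and 8067, 8198 and 8009 in well-watered roots of B128. Drought-stressed roots of B47 had 8192, 6494 and 6428, against 20.1, 12.3 and 8.76 in well-watered roots of B47. On all 24 arrays the medians of the unigenes lay between 1506 and 1581, and the lowest intensity of any unigene was 4.52.

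The 18 arrays other than those of well-watered B47 spanned 3.88-fold. The lowest of them, replicate 2 of drought-stressed B47 leaves, was 127-fold above the highest of the 6 well-watered B47 arrays, replicate 1 of the roots. On those 18 arrays ATG12A stood between percentiles 61.0 and 91.5 of the unigenes of its array. In well-watered B47 it stood between percentiles 0.0136 and 0.438 in leaves, where it was the 5th, 48th and 130th lowest of all unigenes, and between 0.0645 and 4.27 in roots. Levels this close to the lowest value of an array have no sure order among themselves.

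**Figure D1:**
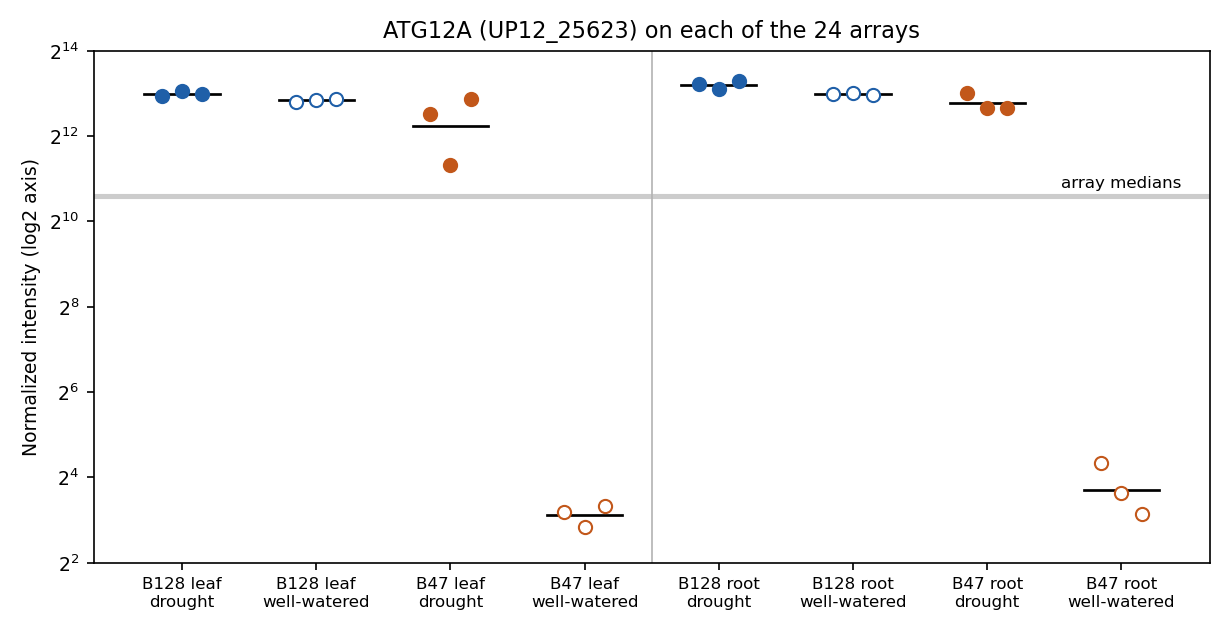
Normalized intensity of ATG12A on each array, on a log2 axis, with leaves on the left and roots on the right. Filled points are drought arrays, open points well-watered arrays, blue is B128 and orange B47, the black bars are means of log2 values and the grey band holds the array medians of 1506 to 1581. The 6 open orange points sit at 7.10 to 20.1 and the other 18 points at 2567 to 9971.

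By mean log2 intensity the groups ran, high to low, from drought-stressed B128 roots at 13.20 ± 0.09, drought-stressed B128 leaves at 12.99 ± 0.06 and well-watered B128 roots at 12.98 ± 0.02 to well-watered B128 leaves at 12.84 ± 0.04 (SD, n = 3 each). Drought-stressed B47 roots at 12.77 ± 0.20 and drought-stressed B47 leaves at 12.23 ± 0.81 came next. Well-watered B47 roots at 3.70 ± 0.60 and well-watered B47 leaves at 3.11 ± 0.26 came last. Drought-stressed B128 leaves and well-watered B128 roots overlapped array by array, as did well-watered B128 leaves and drought-stressed B47 roots, the drought-stressed roots and leaves of B47, and the well-watered roots and leaves of B47. Drought-stressed B47 roots also overlapped drought-stressed B128 leaves and well-watered B128 roots. Drought-stressed B47 leaves also overlapped well-watered B128 leaves.

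The spread of the replicates differed between the groups. In B128 the SD of ATG12A on the log2 scale was below the median SD of all unigenes in each of the 4 groups, and in well-watered roots and leaves only 0.424% and 1.63% of unigenes had a smaller one. In drought-stressed B47 leaves the SD of 0.81 was larger than that of 97.6% of unigenes, whose median was 0.16, while in drought-stressed B47 roots the SD of 0.20 was below the median of 0.25. The 3 arrays of drought-stressed B47 leaves lay between 2567 and 7464, and the lowest was replicate 2.

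As a description of what the choice of the gene rests on, drought-stressed B47 leaves were 9.12 log2 units above well-watered ones, and 6.37 with 50 added to every intensity. Drought-stressed B47 roots were 9.08 log2 units above well-watered ones, and 6.79 with 50 added. Since the well-watered values lie near the lowest of the array, these sizes depend on how low intensities are treated. Among all 29471 unigenes the difference was the 2nd highest in B47 leaves and the 5th highest in B47 roots, and the 9th and 15th highest with 50 added. In well-watered plants B128 exceeded B47 by 9.72 log2 units in leaves and 9.29 in roots, or 6.97 and 7.00 with 50 added, the largest excess of B128 among all unigenes in both organs under either treatment of the intensities. The drought change of B128 minus that of B47 was -8.96 in leaves and -8.86 in roots, the lowest value of all unigenes in each organ, and -6.22 and -6.57, the 3rd lowest in each, with 50 added. For reading these sizes, 16.0% of all unigenes passed a fold change of 2 at an FDR of 0.01 between drought and well-watered B47 leaves, and 22.5% did so in B47 roots. Between B128 and B47 6.46% passed in well-watered leaves and 2.3% in well-watered roots, and of the differences between the drought changes 2.42% passed in leaves and 0.319% in roots.

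**Figure D2:**
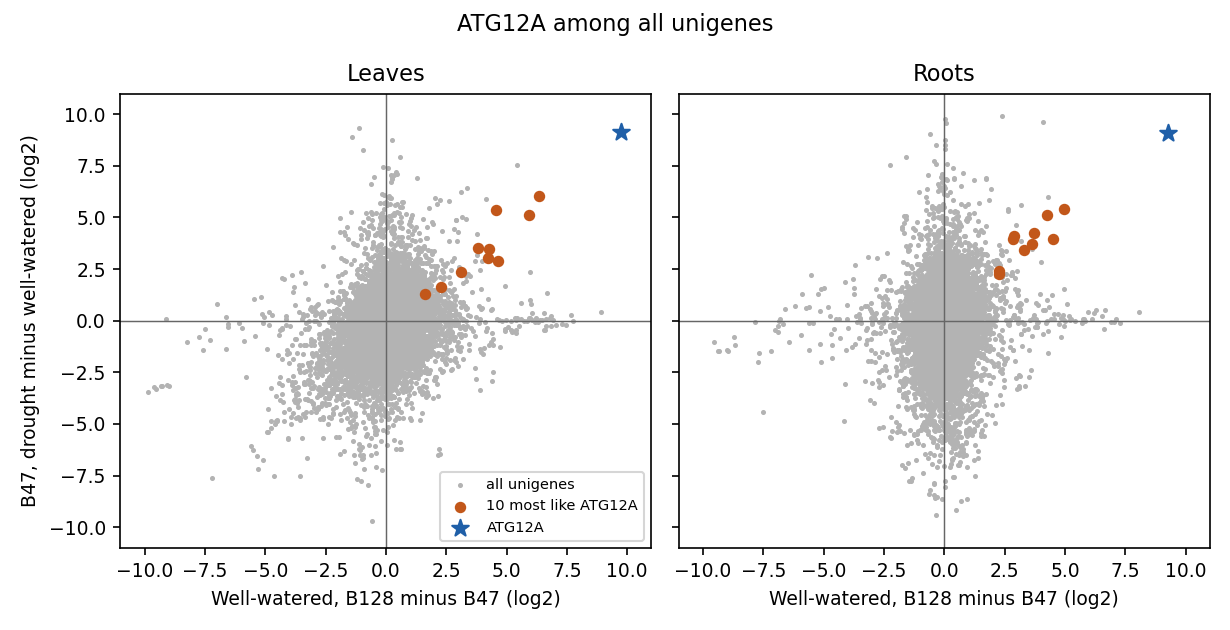
Each grey point is 1 of 29471 unigenes, with its difference between well-watered B128 and B47 on the x axis and its difference between drought and well-watered B47 on the y axis, both in log2 units, for leaves and roots. ATG12A (star) lies alone at the upper right, at 9.72 and 9.12 in leaves and 9.29 and 9.08 in roots, and the 10 unigenes most like it (orange) lie along the diagonal below it.

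In B128, where the gene was high with and without water, the change under drought was small. The mean log2 intensity of drought-stressed B128 leaves exceeded that of well-watered ones by 0.15, with a 95% interval of -0.46 to 0.77, and did not pass (limma, Benjamini-Hochberg adjusted p = 0.731), where 14.7% of all unigenes passed in either direction. In B128 roots the difference was 0.22, with an interval of -0.39 to 0.83 (limma, adjusted p = 0.559), where 21.7% of unigenes passed, and it was -0.18 when the arrays were scaled to their yeast control entries. The intervals exclude a change of 2-fold in either direction for both organs, since all their bounds lie within 1 log2 unit of 0. They use a spread shared with the B47 arrays, which is wider than that of B128 alone. The 3 drought arrays lay above the 3 well-watered ones in both B128 leaves and B128 roots, as 27.0% and 30.8% of all unigenes did, and an exact permutation test of 3 against 3 arrays cannot go below a two-sided p of 0.1. The difference between the drought changes of B128 leaves and B128 roots was -0.07, with an interval of -0.93 to 0.80 (limma, adjusted p = 0.920), where 16.4% of unigenes passed, and 0.38 with the yeast scaling.

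Under drought the lines came close to each other. Drought-stressed leaves of B128 exceeded those of B47 by 0.76 log2 units, with an interval of 0.15 to 1.37, and missed the threshold after adjustment (limma, unadjusted p = 0.0177, adjusted p = 0.144), where 3.18% of unigenes passed. Without replicate 2 of the drought-stressed B47 leaves the difference was 0.31. In drought-stressed roots the difference was 0.43, with an interval of -0.18 to 1.04 (limma, adjusted p = 0.566), where 2.09% of unigenes passed. All 3 B128 arrays lay above all 3 B47 arrays in both organs, as 17.6% of all unigenes did in leaves and 9.13% in roots.

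Leaves and roots of the same line and treatment differed by less than 2-fold at their means. In B128 the difference of leaves minus roots was -0.21 under drought, with an interval of -0.82 to 0.40 (limma, adjusted p = 0.551), and -0.14 with water, with an interval of -0.75 to 0.47 (limma, adjusted p = 0.687). In B47 it was -0.54 under drought, with an interval of -1.15 to 0.07 (limma, adjusted p = 0.118). With water both organs of B47 lay near the lowest intensities, so the difference of -0.58 is given without a test, and it was -0.11 with 50 added. The 3 leaf arrays of B128 lay below its 3 root arrays under drought and with water, as 37.9% and 31.7% of all unigenes did, while in B47 the organs overlapped. Scaled to the yeast control entries, the sign turned for B128 under drought (0.41) and with water (0.027) and for B47 under drought (0.16). None of the 3 tested differences passed, whereas 34.6% and 38.3% of all unigenes did in B128 under drought and with water, and 34.7% in B47 under drought. The choice of the gene rests on all arrays of well-watered B128 and drought-stressed B47. The lack of a large difference between organs in those groups is therefore partly built in. The value for drought-stressed B47 hung on a single array, as it was -0.08 without leaf replicate 2.

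**Figure D3:**
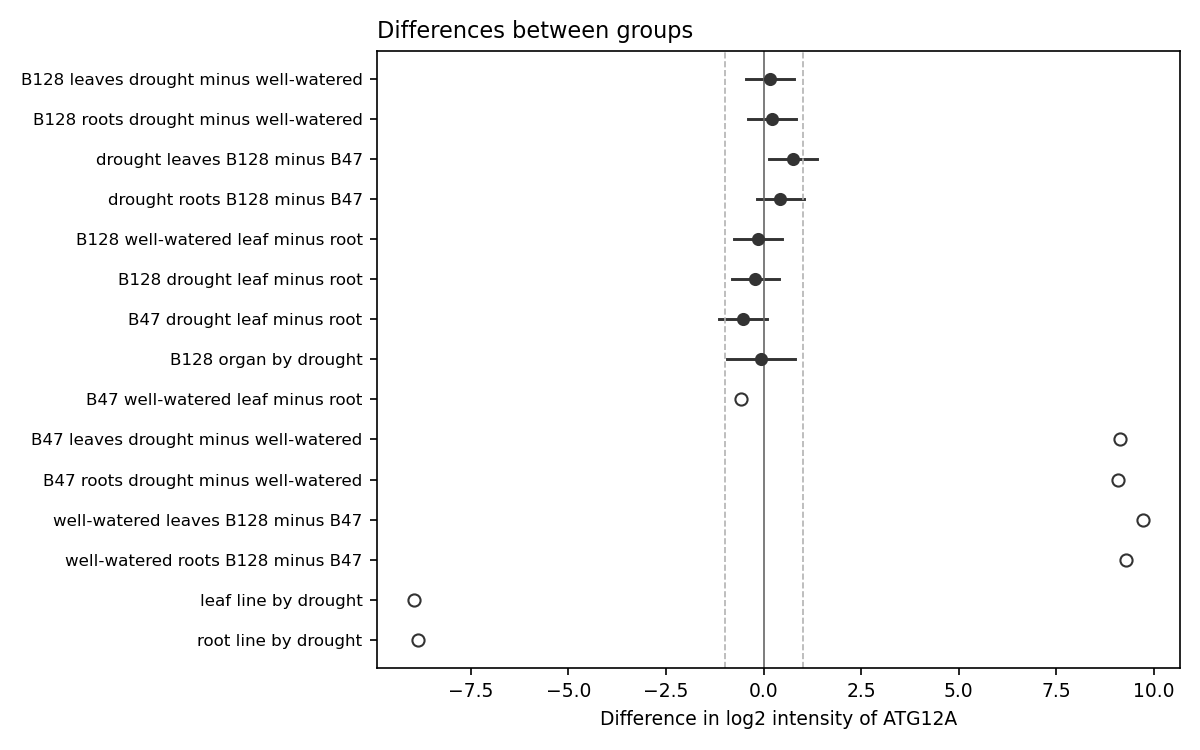
Differences in log2 intensity of ATG12A between groups, with 95% intervals for the tested comparisons (filled points) and none for those that the choice of the gene rests on or, at -0.58, for the organs of well-watered B47 (open points). The dashed lines mark 2-fold, and the tested differences lie between -0.54 and 0.76, while those the choice rests on lie at -8.86 and below or at 9.08 and above.

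Few other unigenes separated well-watered B47 from all other arrays. In 62 unigenes, 0.21% of all, every well-watered B47 array was below each of the other 18, and in 33 unigenes, 0.112%, every one was above. The clear distance between the highest well-watered B47 array and the lowest other array was 6.99 log2 units for ATG12A. It was 3.52 for UP12_10493, the next in size, and at least 2 in 6 unigenes in all. In the opposite direction it reached 2 in 0 unigenes.

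The unigenes with the pattern most like ATG12A were taken by Pearson's r of the log2 intensities over the 24 arrays, which share their plants and their normalization. The 10 highest values ran from 0.889 to 0.990, and the study's tables that were used here name none of those 10 unigenes. The list depends on the measure, since Spearman's rho named 0 of the same 10 and r on linear intensities 6. UP12_22972 (r = 0.990) averaged 11.38 and 11.37 on the log2 scale in drought and well-watered B128 leaves and had intensities of 2095, 1980 and 2394 in drought-stressed B47 leaves, against 173, 175 and 226 in well-watered ones. Its groups did not overlap between drought and water in B47. UP12_10493 (r = 0.985) had 905, 379 and 1393 in drought-stressed B47 leaves, against 17.9, 28.5 and 23.6 in well-watered ones. UP12_7181 (r = 0.947) had 4898, 4552 and 6167 against 59.1, 39.2 and 201 in the same groups. UP12_22972 and UP12_7181 were above the array median on every B128 array, like ATG12A. UP12_10493 had 1420, 1477 and 1460 in drought-stressed B128 leaves and 1153, 1582 and 1493 in well-watered ones. These values were near or below the array medians of 1506 to 1581. In B128 roots UP12_10493 was 1.39 log2 units higher under drought than with water.

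All 10 had their well-watered B47 arrays below the other 18, where 0.21% of all unigenes did. Their difference between drought and well-watered B47 lay between 1.27 and 6.06 log2 units in leaves (median 3.27, against 0.08 over all unigenes) and between 2.28 and 5.42 in roots (median 3.97, against 0.11). In B128 the same differences lay between -1.48 and 0.61 in leaves (median -0.07) and between -0.21 and 1.83 in roots (median 0.57). The 10 were picked on these arrays, so the sizes describe them and carry no test.

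The likeness was less even without well-watered B47. Over the 12 leaf arrays r lay between 0.868 and 0.996, and over the 12 root arrays between 0.919 and 0.991. Over the 18 arrays without well-watered B47 it ranged from -0.27 for UP12_1026 to 0.88 for UP12_24537, with a median of 0.63. Within drought-stressed B47 leaves, all 10 had replicate 3 highest and replicate 2 lowest, as ATG12A had, an order found in 21.0% of all unigenes. The 10 were picked by r over arrays that include these, so a shared order is partly built into the choice. The 3 unigenes with the lowest r were UP12_4073 (-0.93), UP12_10996 (-0.90) and UP12_24195 (-0.90). Of these, UP12_4073 had 9699, 11542 and 7447 in drought-stressed B47 leaves, against 18085, 15870.5 and 16896 in well-watered ones. The reverse order of replicates was found in 2 of the 3 and in 27.9% of all unigenes. These 3 were picked on the same arrays too.

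**Figure D4:**
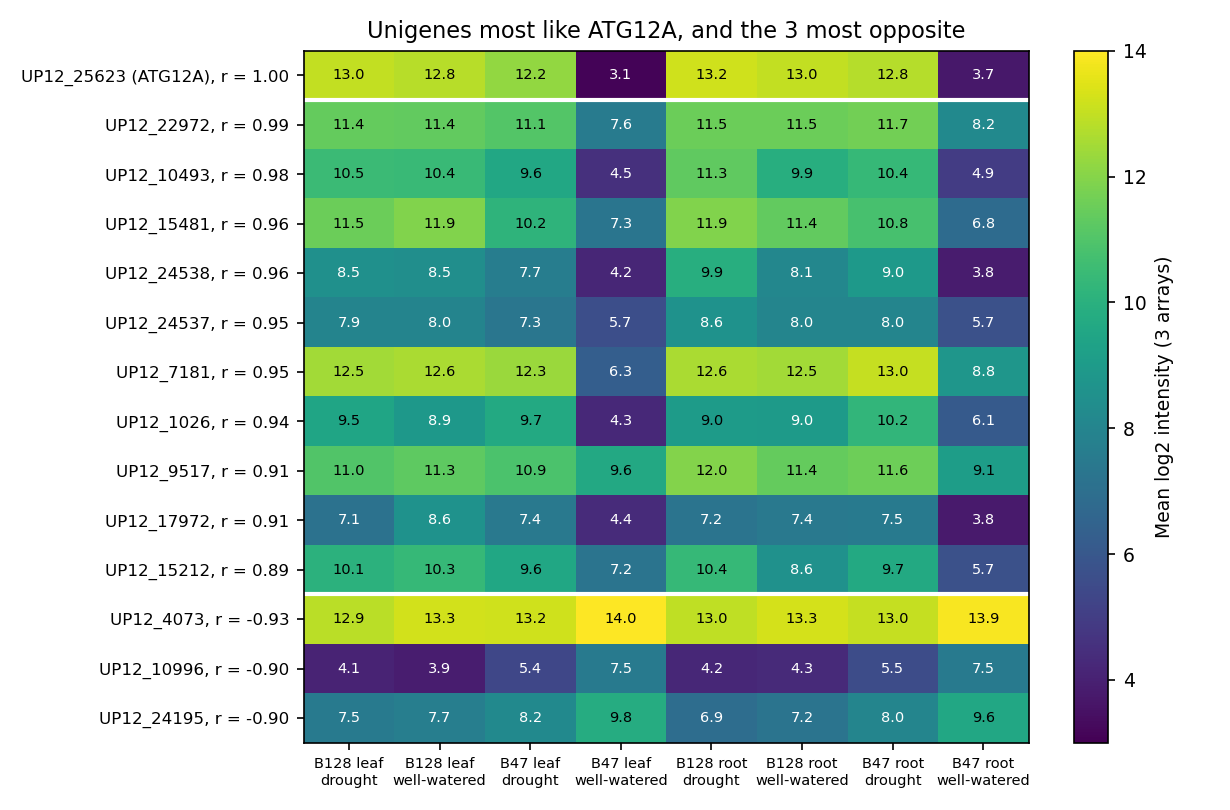
Mean log2 intensity (3 arrays per cell) of ATG12A, of the 10 unigenes with the highest Pearson's r to it and of the 3 with the lowest, over the 8 groups. The upper 11 rows are darkest in the columns of well-watered B47, and the lower 3 are brightest there.

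Among unigenes that the tables do name, the 10 most like ATG12A had r between 0.763 and 0.880. The highest was UP12_1867, a pentatricopeptide repeat protein, of a family that binds organelle RNA, with a difference between drought and well-watered B47 of 0.90 in leaves and 1.44 in roots. UP12_3490 (r = 0.841), annotated with the Arabidopsis locus AT1G76490, which encodes an HMG-CoA reductase of isoprenoid synthesis, had 7.54 in B47 leaves and 2.85 in B47 roots, and 2.67 in B128 leaves. UP12_12760 (r = 0.768), the prolyl isomerase rof1, had 2.91 in B47 leaves and 5.72 in B47 roots, and 3.81 in B128 roots. In the other organ of B128 the values were -0.51 for UP12_3490 (roots) and -0.24 for UP12_12760 (leaves). Each was thus higher under drought than with water in only 1 organ of B128, while the change of ATG12A was 0.15 in leaves and 0.22 in roots. The other 7 were UP12_8947 and UP12_7474 with a heavy-metal-associated domain, UP12_16343 (AT5G14780, a formate dehydrogenase in Arabidopsis), the chaperonin UP12_14003, the Clp protease or crotonase family member UP12_27504, the WD-40 repeat protein UP12_10837 (MSI3) and the dephospho-CoA kinase UP12_22986. For UP12_8947, UP12_7474 and UP12_10837 the well-watered B47 arrays overlapped the others.

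Since B47 came near the level of B128 under drought, the drought arrays were compared with the unigenes that told the lines apart with water. There were 107 such line markers besides ATG12A, differing by at least 3 log2 units in both well-watered leaves and well-watered roots, 62 higher in B128 and 45 higher in B47. On the B128 drought arrays, 102 to 106 of the 107 were closer to the well-watered mean of their own line. On the B47 drought arrays 97, 98 and 86 were closer to B47 in leaves, and 98, 97 and 99 in roots. The drought arrays of B47 thus mostly carried the marker levels of B47, and 84 of the 107 markers were closer to B47 on all 6 of them. Replicate 3 of the leaves, with the highest ATG12A of its group, had the fewest markers closer to B47, 80.4%. In roots the array with the highest ATG12A, replicate 1, had 98, between 97 and 99. The part of these markers in the level of ATG12A was not tested.

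ATG12A was far from the typical marker, as its choice on these same values fixed in advance. The shares that follow describe it and carry no test. Drought-stressed B47 covered 93.8% of the distance of ATG12A between the well-watered lines in leaves and 97.7% in roots. The medians over the markers were 3.27% and 1.80%. For ATG12A the shares are also given by array. They were 96.6%, 84.4% and 100.3% in leaves and 100.2%, 96.6% and 96.4% in roots. At least 50% of the distance was covered at 11 of the 107 markers in leaves and 9 in roots. On all 6 B47 drought arrays 5 markers were closer to B128, UP12_10493, UP12_22972, UP12_24538, UP12_7181 and UP12_3490, each higher in B128 with water. Of these, 4 are among the 10 most like ATG12A, but both lists were drawn from the same arrays, so their overlap is partly built in. On all 6 B128 drought arrays 0 markers were closer to B47.

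**Figure D5:**
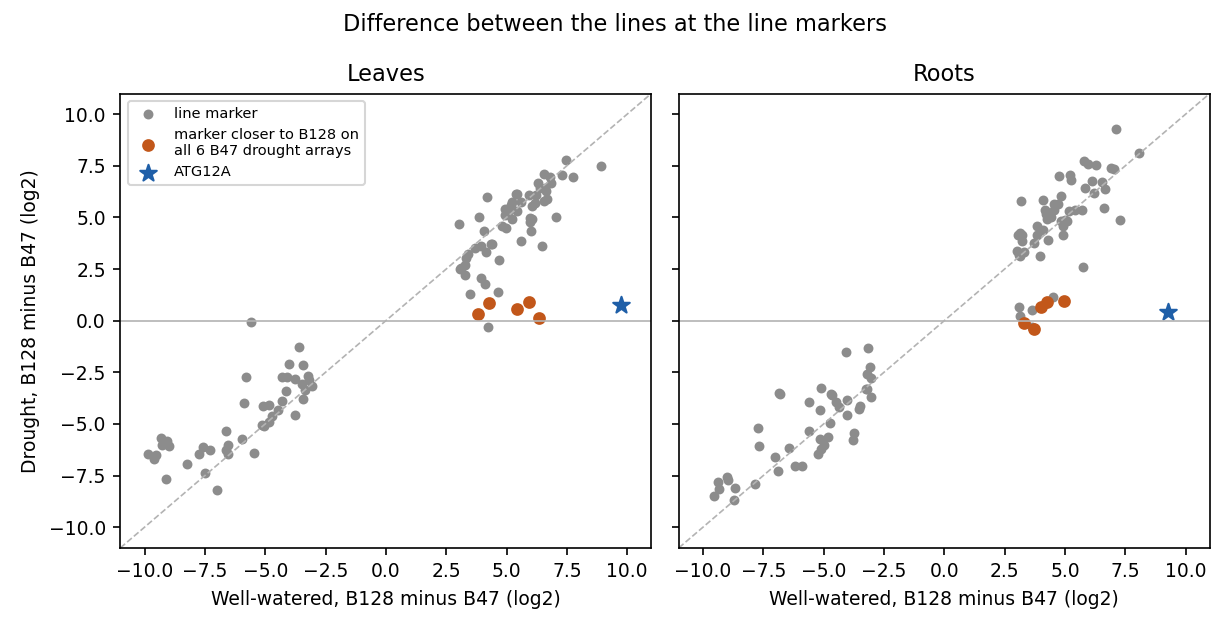
Difference of B128 minus B47 at the line markers, with water on the x axis and under drought on the y axis, in log2 units, for leaves and roots. Most markers lie near the dashed line of equal difference, while ATG12A (star, 0.76 in leaves and 0.43 in roots under drought) and the 5 markers closer to B128 on all 6 B47 drought arrays (orange) lie near 0 on the y axis.

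ATG12A was the only one of the 2206 unigenes named in the tables used here whose name holds autophagy or ATG, so its partners ATG5, ATG7, ATG10 and ATG8 were not analysed here. Related degradation pathways were described through name lists. The tables hold genes that the study chose as drought-regulated on these samples. A larger share passing than over all unigenes is therefore built into each list and is no result. For the same reason the counts are not independent evidence of a direction. Ubiquitin conjugation uses the same enzyme logic as ATG12 but marks proteins for the proteasome. The list of ubiquitin conjugation and the proteasome together had 47 unigenes. In B47 leaves 14 rose and 21 fell under drought (limma, FDR of at most 0.01 and 2-fold; over all unigenes 7.86% rose and 8.18% fell), and in B128 leaves 18 rose and 14 fell (over all 6.31% and 8.35%). In roots 10 rose and 16 fell in B47 (over all 10.9% and 11.6%), and 10 rose and 17 fell in B128 (over all 10.5% and 11.2%). The median change was -0.43 in B47 leaves, against 0.08 over all unigenes, and 0.67 in B128 leaves, against 0.05.

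The 2 largest rises and the 2 largest falls of the list in B47 leaves were all E3 ligases, which choose the proteins to be marked. ATL31 (UP12_7188) was 4.80 higher in B47 leaves and 4.75 higher in B128 leaves under drought, and ATL23 (UP12_29506) 4.76 and 2.71. Both unigenes named PUB22, in Arabidopsis a negative regulator of the drought response, changed the other way in B47 leaves, where UP12_15004 fell by 7.50 and UP12_14588 fell by 6.73. Their drought values in B128 leaves were both 0.88. With water the difference of B128 minus B47 leaves was -4.64 for UP12_15004 and -5.07 for UP12_14588, the opposite side to ATG12A. With ATG12A, r over the 24 arrays had a median of -0.085 over the 47 unigenes, a highest value of 0.610 and a lowest of -0.586.

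Proteases break down proteins in the vacuole and elsewhere, and more of the 42 unigenes of that list fell than rose under drought in each line and organ. In B47 leaves 9 rose and 18 fell (over all unigenes 7.86% and 8.18%) and in B47 roots 4 rose and 23 fell (over all 10.9% and 11.6%). In B128 leaves 10 rose and 17 fell (over all 6.31% and 8.35%) and in B128 roots 4 rose and 21 fell (over all 10.5% and 11.2%). A pair of serine carboxypeptidase 24 unigenes were among those that fell, UP12_29102 with a change of -7.21 in B47 leaves and -5.41 in B128 leaves, and UP12_13064 with -7.08 and -5.46. The largest rises in B47 leaves were a carboxypeptidase-like protein (UP12_21339) at 4.05 and cysteine proteinase inhibitor 2 (UP12_15561) at 3.66, which blocks proteases and was listed by its name only. The member of the list with the highest r with ATG12A was UP12_27504 at 0.772, while the median of the list was -0.164 and the lowest value -0.521. The name of UP12_27504 gives the Clp protease or crotonase family, and it too was listed by its name only.

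Of the 4 unigenes named for senescence, 0 rose and 3 fell in B47 leaves (over all unigenes 7.86% and 8.18%), and 2 rose and 1 fell in B128 leaves (over all 6.31% and 8.35%). In roots 1 rose and 1 fell in B47 (over all 10.9% and 11.6%), and 0 rose and 2 fell in B128 (over all 10.5% and 11.2%). SAG21 (UP12_4312), a late embryogenesis abundant protein in Arabidopsis, fell by 4.35 in B47 leaves and was 2.74 higher in drought-stressed B47 roots. UP12_28940, a senescence and dehydration-associated protein, fell by 3.82 in B47 leaves and was 3.22 higher in drought-stressed B128 leaves. The 7 membrane traffic unigenes, whose products move vesicles between compartments, had 3 rises and 1 fall in B47 leaves and 5 rises and 0 falls in B128 leaves, against the same shares over all unigenes. In roots they had 4 rises and 2 falls in B47 and 3 rises and 2 falls in B128, again against the shares over all unigenes just given. The rises in B47 leaves included both unigenes of the ARF GTPase-activating protein AGD14, UP12_12884 by 1.37 and UP12_8872 by 1.35, and the fall was that of syntaxin-121 (UP12_9825), a plasma membrane SNARE, at -2.03. The median r with ATG12A was 0.432 over the traffic unigenes and -0.377 over the senescence ones.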

How the data were processed

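Total RNA was labelled with Cy3 and hybridised to custom NimbleGen arrays with 4 probes per unigene. The authors normalized the probes by quantile normalization, summarized them by RMA and deposited the normalized intensity on a linear scale. Quantile normalization gives all arrays a like distribution, so a change shared by most transcripts would not appear. The intensities of 29471 unigenes were log2-transformed with no pseudocount, and 8 yeast control entries were left out. Group means were modelled with limma 3.58.1 under R 4.3.3, the 24 arrays together leaving 16 residual degrees of freedom, with Benjamini-Hochberg adjustment over all unigenes within each comparison. To pass, a unigene needed a 2-fold difference or more and an adjusted p no higher than 0.01. Tables and plots were made in Python 3.11.15. The number of arrays limits the precision. A test planned for leaves against roots of well-watered B47 is left out, since both groups lay near the lowest intensities.

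The unigenes named are ATG12A, the 10 with the highest and the 3 with the lowest r, the 10 named ones with the highest r, and per list the 2 largest rises and falls in B47 leaves. A few others were singled out after their values were seen. Names came from the study's gene tables, some of which were used in part, and the authors' comparison columns were not used. ATG12A, the lists and the tests were chosen with earlier results of these data known.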

Additional observations from a re-analysis of the deposited data

How the results depend on the processing

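None of the tested comparisons passed 2-fold at an FDR of 0.01 under any setting run, or at 0.05 with all arrays. The nearest were B128 over B47 in drought-stressed leaves without B47 replicate 3 (1.08, limma adjusted p = 0.0323, past 2-fold and 0.05) and leaves minus roots of drought-stressed B47 with array weights (limma adjusted p = 0.00827, under 2-fold). With the yeast control entries set equal, which shifts the median of all unigenes by up to 0.69 log2 units, 5 differences changed sign, to -0.18 for the drought change of B128 roots, to 0.41 for leaves minus roots of B128 under drought, to 0.027 for the same with water, to 0.16 for leaves minus roots of B47 under drought and to 0.38 for the drought change of B128 leaves minus that of roots. With 50 added to each intensity, the drought change was 6.37 in B47 leaves and 6.79 in B47 roots, the excess of well-watered B128 over B47 was 6.97 in leaves and 7.00 in roots, and the drought change of B128 minus that of B47 was -6.22 in leaves and -6.57 in roots. Without single arrays, the last of these in leaves ranged from -9.42 (without replicate 2 of drought-stressed B47 leaves) to -8.65, and the excess of B128 over B47 in drought-stressed leaves from 0.31 to 1.08. Its adjusted p ranged from 0.0216 to 0.684 over all settings. Spearman's rho named 0 of the same 10 unigenes as most like ATG12A, and r on linear intensities 6. A replicate block left each estimate as it was (0.76 for drought-stressed leaves, limma adjusted p = 0.132), and deviations of same-numbered arrays had a mean r of 0.0017, so the numbers were not taken as pairs. Array weights stopped before convergence. At 2 log2 units instead of 3, 55 unigenes in place of 16 in leaves and 48 in place of 12 in roots shared the pattern of ATG12A. The lowest intensities set the size of its largest differences.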

Other observations

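The pattern of ATG12A, at least 3 log2 units higher in B128 than in B47 with water and at least 3 higher in drought-stressed than in well-watered B47, was met by 16 unigenes in leaves and 12 in roots, ATG12A included. In both organs it was met by 6: ATG12A, UP12_22972, UP12_10493, UP12_24538, UP12_7181 and UP12_17972. The opposite pattern, lower by 3 in both comparisons, was met by 75 unigenes in leaves and 4 in roots, and by 0 in both organs. These comparisons share the well-watered B47 arrays, so a low or high value there enters both. The pair of PUB22 unigenes, which were lower in B128 leaves than in B47 leaves with water and fell in drought-stressed B47 leaves, were 0.56 and 0.90 higher in B128 than in B47 in well-watered roots.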
